A study of Medicago truncatula with 9 samples.

Results

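The miRNAs described here were the predicted entries of 20 to 22 nt in the miRNA count table of Medicago truncatula seedlings. They were chosen by name and length: an entry belonged if its name did not start with mtr-, the prefix of the known Medicago truncatula miRNAs, and if its listed length was 20, 21 or 22 nt. This gave 62 of the 905 entries of the table, which held 684 known and 221 predicted miRNAs. Of the 62, 3 were 20 nt long, 44 were 21 nt and 15 were 22 nt. Their names all begin with unconservative, followed by a chromosome-like digit from 1 to 8 or a scaffold name and a serial number, and the meaning of these fields was not given in the sources used here. The table gave no coordinates, so the position of these miRNAs in the genome is not stated.

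Entire seedlings of R108, a genotype of the model legume Medicago truncatula, were sampled after 72 h of germination under 3 conditions. The control seeds received distilled water (DW), the salt seeds (SS) a 20 mM mixture of NaCl and Na2SO4, and the alkali seeds (AS) a 5 mM mixture of Na2CO3 and NaHCO3. The 3 conditions shared the growth chamber conditions, and small RNA was sequenced from 3 libraries per condition. The treatments differ in their ions and in their concentration as well as in alkalinity. RNA came from whole seedlings, so fewer cells of a type and less RNA per cell cannot be told apart. A condition had 1 dish according to the methods, which also speak of 3 biological replicates, so dish and condition cannot be told apart if the libraries of a condition share a dish, which is not stated. The p-values then measure the spread between these libraries, which may be technical.

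Plant miRNAs are cut from hairpin precursors, mostly by DICER-LIKE 1, and guide ARGONAUTE proteins to messenger RNAs with matching sites, which are then cleaved or translated less. Most plant miRNAs are 20 to 22 nt long, whereas small RNAs of 24 nt are mostly made by another Dicer-like enzyme and act in DNA methylation. miRNAs of 22 nt are known for setting off the production of secondary small RNAs from the targets that they cleave, which in legumes include disease resistance genes. In legume seedlings, known miRNAs act in the control of transcription factors of growth, hormone signalling and nutrient uptake, while the targets of the predicted miRNAs described here were not analysed.

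The sequence of 1 member could be tied to its values, because its count table name also stands beside a sequence in the study's lists of differing miRNAs. It is shown with both mature miRNAs of the known hairpin that it resembles. The sequences used here came only from these lists, so a difference of this member between conditions is no separate finding. Bases 2 to 8, the seed, are in capitals for the miRNAs that can be compared by it.
unconservative_2_20185: gACAUGAAcgcagaacuggaa
mtr-miR2086-3p: gACAUGAAugcagaacuggaa
mtr-miR2086-5p: ccaguucugcguucauguccc
unconservative_2_20185 was 21 nt long and differed from mtr-miR2086-3p by 1 substitution, U9C, counted from 1 at the 5′ end with the base of mtr-miR2086-3p first. The seed was the same in both. The substitution lies in the stretch that can pair with mtr-miR2086-5p, the other strand of the known hairpin. Bases 1 to 19 of unconservative_2_20185 were an unbroken complement of mtr-miR2086-5p, a run of 19 bases. The longest run for mtr-miR2086-3p was 10 bases, from 10 to 19. These runs count only G-C and A-U pairs. The U at base 9 of mtr-miR2086-3p faces a G of mtr-miR2086-5p, and such G-U pairs were not counted.

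The study's lists of differing miRNAs also hold predicted sequences of 20 to 22 nt under plain numbers. Number 41 has the same bases as unconservative_2_20185. The others were not matched to count table entries, and they therefore have no values here. A few are shown because they are near copies of conserved plant miRNAs or of each other. The seed is again in capitals.
predicted number 12: uCGGACCAggcuucguucccc
mtr-miR166g-3p: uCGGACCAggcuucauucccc
predicted number 205: aUUGGAUUgaagggagcucc
mtr-miR159a: uUUGGAUUgaagggagcucua
predicted numbers 186 and 208: uGGAGAAGcaggacacgugca
Predicted number 12 matched mtr-miR166g-3p at 20 of 21 bases, with the same seed. miR166 is the conserved regulator of HD-ZIP III transcription factors, which set leaf polarity and vascular development. Predicted number 205, of 20 nt, matched at 18 bases both mtr-miR159a, a regulator of MYB transcription factors, and mtr-miR319c-3p, whose family acts on TCP transcription factors. Its seed is that of mtr-miR159a. Predicted numbers 186 and 208 were the same 21 bases. At most 10 of them matched any known miRNA whose sequence stands in the study's lists of differing miRNAs. The other known miRNAs were not compared, so whether one of them is a close relative was not tested.

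The libraries held 3746957 to 7191272 miRNA counts each, of which the predicted 20- to 22-nt miRNAs took 113182 to 251308. Scaling used edgeR's trimmed mean method (TMM). Its factors were lowest in AS1, at 0.768, and highest in DW1, at 1.35. Levels are given as counts per 1000000 on this scale (CPM). A test across miRNAs used the 647 entries with enough counts. A miRNA is said to be called, or to rise or fall, where it differed by more than 1.5-fold with an adjusted p under 0.05 in edgeR's quasi-likelihood test, fitted over all 9 libraries with Benjamini-Hochberg adjustment over the 647 entries. The same distilled water libraries serve the salt and the alkali comparison, and the same alkali libraries serve both alkali comparisons, so these are not independent of each other.

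At least 1 count in 1 library was found for 55 of the 62 members, and 7 were listed at 0 in all 9 libraries. A single library held 49 to 52 of them. Counts in all 9 libraries were found for 48 members, 26 (41.9%) had at least 100 counts in every library and 13 had at least 1000. The corresponding share with 100 counts in every library was 39.2% of the predicted 24-nt miRNAs and 25.6% of the known miRNAs of 20 to 22 nt. The members of 22 nt were the least often seen, with 4 of 15 at 0 in all libraries, while all 3 members of 20 nt were found. The 48 members with counts in all libraries were the ones that could be tested, 3 of 20 nt, 38 of 21 nt and 7 of 22 nt. The 7 members that were detected but not tested had at most 7 counts in any library.

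The levels of the tested members covered more than 3 orders of magnitude, with a median of 44.4 CPM over the members against 24.5 CPM over all entries tested. A few members held nearly all counts. The 6 with the highest mean took 71.5 to 79.8% of the counts of the predicted 20- to 22-nt miRNAs in a library, and the 10 highest took 89.5 to 90.6%. The highest were unconservative_8_13769, at 4189.9 to 7202 CPM over the 9 libraries, and unconservative_8_17023, at 4615 to 7275 CPM. Both are 21 nt long, and their ranges overlapped, so their order is not fixed. unconservative_4_44216, also of 21 nt, had 3258 to 5264 CPM. The next were both 22 nt long, unconservative_7_24079 at 2642 to 3999.7 CPM (SD 388, n = 9) and unconservative_4_42676 at 2166 to 3497 CPM. Of the 20-nt members, unconservative_4_43694 had 1986 to 3235 CPM and unconservative_7_26918 had 1094 to 2167 CPM. Each of these ranges overlapped that of its neighbour in the order. They were followed by unconservative_1_30619 at 1328 ± 619 CPM (SD, n = 9), unconservative_3_38581 at 761 ± 144 CPM and unconservative_8_14529 at 535 ± 219 CPM, all of 21 nt. The wide SD of unconservative_1_30619 and unconservative_8_14529 goes with a difference between conditions that is given below with the comparisons.

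**Figure D1:**
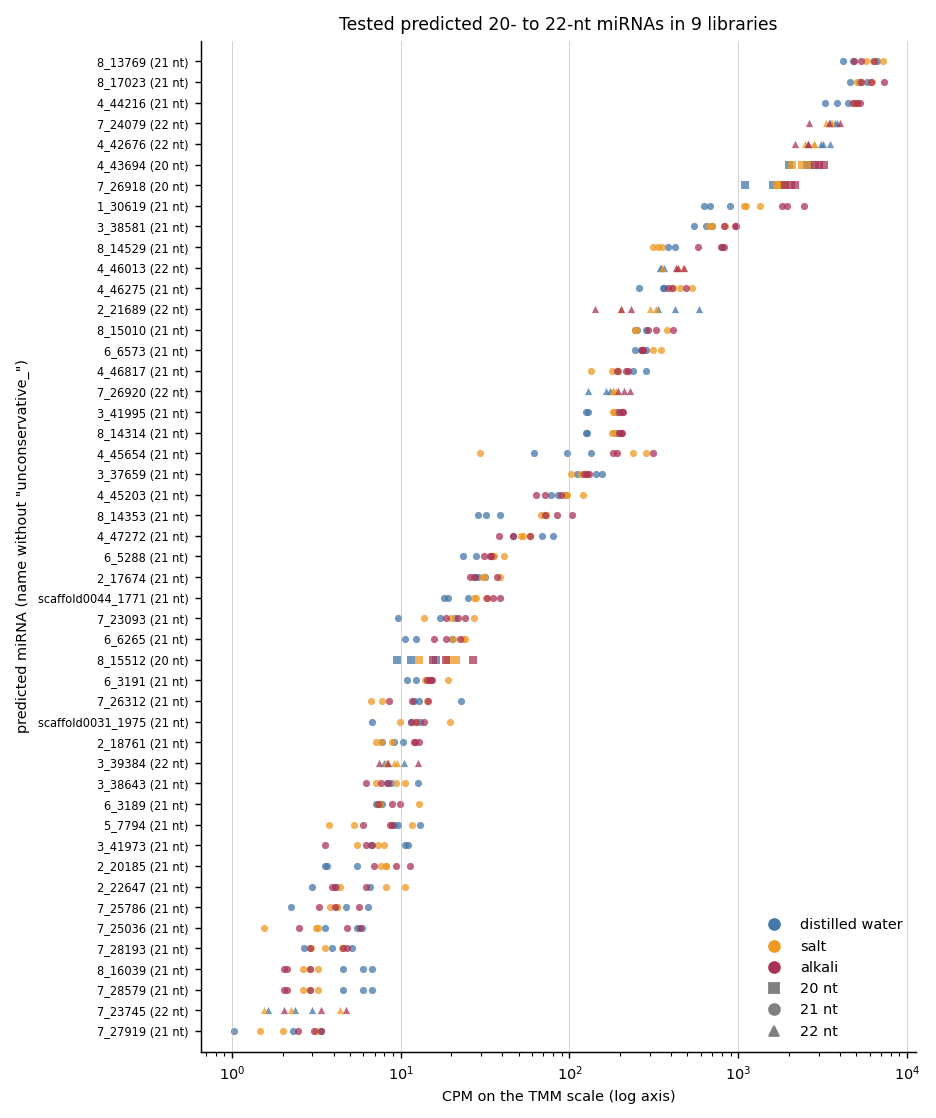
Level of the 48 tested predicted 20- to 22-nt miRNAs in each of the 9 libraries, in CPM on a log axis, 1 point per library, colored by condition and shaped by length, and sorted by mean level. The top 7 members lie above 1000 CPM in every library, and the points of unconservative_4_45654 are the most spread.

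The spread between libraries differed among the members. The coefficient of variation over the 9 libraries ranged from 11 to 57.6%, with a median of 22.2%. The steadiest by the ratio of the highest to the lowest library was unconservative_4_46013, of 22 nt, at 1.39. The most variable was unconservative_4_45654, of 21 nt, at 10.6, singled out here after its values were seen. Its level was 61.5, 96.2 and 135 CPM in DW, 29.5, 237 and 285 CPM in SS and 181, 192 and 312 CPM in AS. The library SS1, with only 133 counts, stood far below the other salt libraries, and the log2 fold change of 1.23 ± 0.78 (SE) in alkali had an adjusted p of 0.255 in edgeR's quasi-likelihood test. Without SS1, this miRNA was called in salt, with a log2 fold change of 1.42 and an adjusted p of 0.0055 in edgeR's quasi-likelihood test, and in alkali, with an adjusted p of 0.00313. The biological coefficient of variation that edgeR estimated had a median of 0.172 in the members, against 0.176 in all entries tested and 0.174 in the known miRNAs of 20 to 22 nt.

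Some members could not be read as separate miRNAs from the counts. unconservative_7_28579 and unconservative_8_16039 had identical counts in all 9 libraries, so the 55 detected members held 54 distinct count profiles. unconservative_3_41995 and unconservative_8_14314 differed by at most 1.22%, or 12 counts, in any library. How the authors assigned reads that fit several entries was not given in the sources used here. A pair of members with neighbouring serial numbers kept a narrow ratio. The 22-nt unconservative_7_26920 had 9.54 to 11.7% of the counts of the 20-nt unconservative_7_26918 in every library, with a mean of 10.4 ± 0.69% (SD, n = 9). For the neighbouring 21-nt pair unconservative_6_3189 and unconservative_6_3191, the first had 49.2 to 67.7% of the counts of the second. Whether such pairs come from the same hairpin was not tested.

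The comparison of salt with distilled water asked which miRNAs respond to neutral salt during germination. Among the predicted 20- to 22-nt miRNAs, unconservative_8_14353 and unconservative_1_30619, both of 21 nt, rose in salt, and none fell. The 2 of 48 tested members are 4.17%, beside 8.19% of all 647 entries tested that were called in either direction, 4.02% higher and 4.17% lower. Some entries of the table repeat each other, with 643 distinct count profiles among the 876 detected entries. The shares over all entries, here and below, thus count some profiles more than once. At an unadjusted p under 0.05 in edgeR's quasi-likelihood test, 6 members were higher and 7 lower, and DESeq2 and limma-voom also called 2 higher and 0 lower. Without DW3 the calls were 10, 8 higher and 2 lower. The median log2 fold change of the members was 0.21, against -0.06 over all entries tested, and 31 of the 48 were positive.

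The level of unconservative_8_14353 was 28.7, 32.1 and 38.9 CPM in DW, 72.4, 73.0 and 68.1 CPM in SS and 104, 72.0 and 84.0 CPM in AS. The salt libraries lay close together and all above the distilled water libraries. The log2 fold change in salt was 1.1 ± 0.19 (SE), a 2.14-fold rise with an adjusted p of 0.000799 in edgeR's quasi-likelihood test. The call held in all 18 alternative analyses, leaving out each library included.

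The level of unconservative_1_30619 was 629, 682 and 893 CPM in DW, 1117, 1349.8 and 1075 CPM in SS and 2442, 1811 and 1952 CPM in AS. The 3 conditions did not overlap in this miRNA, with salt between distilled water and alkali. Its log2 fold change in salt was 0.68 ± 0.19 (SE), a 1.61-fold rise with an adjusted p of 0.0318 in edgeR's quasi-likelihood test. This call was lost when DW1, DW2, SS1, SS2 or SS3 was left out, with folds of 1.49 to 1.68 and adjusted p-values of 0.0531 to 0.128 in edgeR's quasi-likelihood test. It was also lost with library sizes of clean reads, at an adjusted p of 0.15, with the replicate block, at 0.0733, and without DW1 and AS1, at a fold of 1.498, so it held in 10 of 18 alternative analyses.

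The groups did not overlap in 14 members in this comparison, 8 higher and 6 lower in salt, beside 24.1% of all entries tested, 11.1% higher and 13% lower. The 22-nt unconservative_2_21689 was among those lower, at 586, 421 and 335 CPM in distilled water and 327, 202 and 299 CPM in salt. Its log2 fold change of -0.70 ± 0.22 (SE) had an adjusted p of 0.0555 in edgeR's quasi-likelihood test and was not called, while without DW3, AS1 or AS3 it was, at adjusted p-values of 0.0146 to 0.041 in the same test. The identical entries unconservative_7_28579 and unconservative_8_16039 had the lowest log2 fold change of the members, -1.0 ± 0.35 (SE), with an adjusted p of 0.0758 in the same edgeR test at 11 to 33 counts in these libraries. unconservative_8_14529 had 424, 803 and 385 CPM in distilled water and 335, 351 and 313 CPM in salt. The groups did not overlap, but DW2 stood far above the other distilled water libraries, and the log2 fold change of -0.69 ± 0.23 (SE) had an adjusted p of 0.0602 in edgeR's quasi-likelihood test. Without DW3, AS1 or AS3 it was called, at adjusted p-values of 0.00894 to 0.0456. Of the 6 most abundant members, the log2 fold changes in salt lay between -0.27 and 0.36, and none was called.

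**Figure D2:**
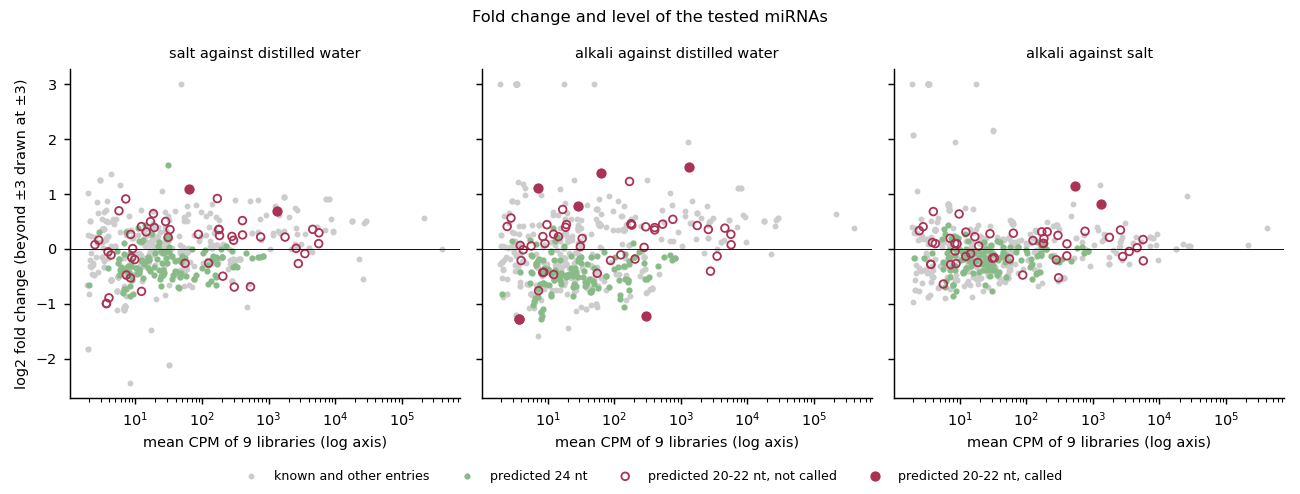
Log2 fold change against mean CPM of the 9 libraries (log axis) for the 647 entries tested, in the salt, alkali and alkali against salt comparisons. Red circles are the predicted 20- to 22-nt miRNAs, filled where called (2, 7 and 2), green points are predicted 24-nt miRNAs, grey points all other entries, and values beyond 3 in size are drawn at 3. The green points lie mostly below 0 in alkali, with a median of -0.45, and the red circles lie on both sides of 0, with a median of 0.25.

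The comparison of alkali with distilled water asked the same of an alkaline carbonate solution. In it 4 members rose, unconservative_1_30619, unconservative_8_14353, unconservative_2_20185 and unconservative_scaffold0044_1771, all of 21 nt. A further 3 fell, the 22-nt unconservative_2_21689 and the identical 21-nt pair unconservative_7_28579 and unconservative_8_16039, which count as 1 profile. The 7 of 48 tested members are 14.6%, beside 17.2% of all entries tested called in either direction, 8.66% higher and 8.5% lower. At an unadjusted p under 0.05 in edgeR's quasi-likelihood test, 13 were higher and 6 lower, which was 17 and 4 with DESeq2 and 5 and 5 with library sizes of clean reads. Without DW3 the calls were 14, 10 higher and 4 lower. The median log2 fold change was 0.25, against -0.17 over all entries tested. The scaling by DESeq2's size factors moved the median of all entries by more than 0.1, to -0.06, and that of the members to 0.35, so the members stood above the median of all entries by about the same amount.

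unconservative_1_30619 had the largest log2 fold change of the tested members in alkali, 1.49 ± 0.19 (SE), a 2.82-fold rise with an adjusted p of 1.3e-05 in edgeR's quasi-likelihood test. With the CPM values above, every alkali library exceeded every distilled water library at least by the gap from 893 to 1811 CPM. unconservative_8_14353 rose 2.61-fold, with a log2 fold change of 1.38 ± 0.19 (SE) and an adjusted p of 1.57e-05 in the same edgeR test. Both calls held in all 18 alternative analyses.

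unconservative_2_20185, whose sequence is printed above, had 3.56, 3.67 and 5.53 CPM in DW, 8.21, 7.62 and 8.17 CPM in SS and 11.3, 6.92 and 9.39 CPM in AS. These levels rest on few reads, 16 to 27 counts in the distilled water libraries and 26 to 62 in the others. Every treated library was above every distilled water library. The log2 fold change in alkali was 1.1 ± 0.30 (SE) with an adjusted p of 0.0153 in edgeR's quasi-likelihood test, and the call was lost without DW2, at an adjusted p of 0.0609, or AS1, at 0.097. It was also lost without both DW1 and AS1, at an adjusted p of 0.228 in the same edgeR test. In salt the log2 fold change was 0.91 ± 0.30 (SE) with an adjusted p of 0.0611 in the same edgeR test, and 0.0133 without DW3.

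The known miRNA that it resembles was far more abundant. mtr-miR2086-3p averaged 1504 ± 282 CPM in DW, 2259 ± 216 CPM in SS and 2230 ± 389 CPM in AS (SD, n = 3 each), and mtr-miR2086-5p 99.8 ± 18.7, 131 ± 8.87 and 150 ± 15.6 CPM. The alkali log2 fold change was 0.57 in mtr-miR2086-3p, with an adjusted p of 0.0425 and below the fold threshold, and 0.59 in mtr-miR2086-5p, with an adjusted p of 0.0218 in edgeR's quasi-likelihood test. The counts of unconservative_2_20185 were a small part of the sum with mtr-miR2086-3p, 0.240 to 0.310% in DW, 0.303 to 0.385% in SS and 0.349 to 0.459% in AS. The alkali and distilled water ranges of this share did not overlap, and those of salt overlapped with both. Whether the reads with U9C come from a hairpin of their own was not tested.

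unconservative_scaffold0044_1771 had 18, 25 and 19 CPM in DW, 32.2, 27.3 and 28.1 CPM in SS and 38.6, 32.5 and 35.0 CPM in AS. The 3 conditions did not overlap, with salt in the middle. The alkali log2 fold change was 0.78 ± 0.20 (SE) with an adjusted p of 0.0129 in edgeR's quasi-likelihood test, and the call was lost without AS1, at an adjusted p of 0.0543. It was also lost without both DW1 and AS1, at an adjusted p of 0.167 in the same edgeR test. In salt, at a log2 fold change of 0.50 ± 0.21 (SE), the adjusted p was 0.139 in the same edgeR test.

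unconservative_2_21689 was the only member of 22 nt that was called in any of the 3 comparisons. It had 586, 421 and 335 CPM in DW, 327, 202 and 299 CPM in SS and 143, 201 and 232 CPM in AS. All alkali libraries were below all distilled water libraries, while alkali and salt overlapped. The log2 fold change in alkali was -1.22 ± 0.23 (SE), a 2.33-fold fall with an adjusted p of 0.000522 in edgeR's quasi-likelihood test, and the call held in all 18 alternative analyses.

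The pair unconservative_7_28579 and unconservative_8_16039 had 4.55, 5.97 and 6.75 CPM in DW, 2.89, 3.22 and 2.64 CPM in SS and 2.89, 2.13 and 2.03 CPM in AS. These stand for 23 to 33 counts in distilled water and 8 to 14 counts in alkali, the least of all called members. The log2 fold change in alkali was -1.28 ± 0.36 (SE), the lowest of the tested members, with an adjusted p of 0.0196 in edgeR's quasi-likelihood test. The call was lost without DW2, at an adjusted p of 0.0609, or AS2, at 0.0681.

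The groups did not overlap in 21 members in this comparison, 16 higher and 5 lower in alkali, beside 34.6% of all entries tested, 17% higher and 17.6% lower. Among the abundant ones, unconservative_3_38581 had 549, 644 and 702 CPM in distilled water and 972, 822 and 958 CPM in alkali. Its log2 fold change of 0.54 ± 0.17 (SE) had an adjusted p of 0.033 in edgeR's quasi-likelihood test but was below the fold threshold, which it passed without DW3, at 1.59-fold, or AS2, at 1.53-fold. The 22-nt unconservative_4_42676 was lower in all alkali libraries, at 2449 ± 245 CPM against 3247 ± 222 CPM in distilled water (SD, n = 3 each), with a log2 fold change of -0.41 ± 0.18 (SE) and an adjusted p of 0.0853 in the same edgeR test. The 20-nt unconservative_7_26918 had 2034 ± 138 against 1515 ± 380 CPM (SD, n = 3 each). With a log2 fold change of 0.43 ± 0.19 (SE), it had an adjusted p of 0.0924 in edgeR's quasi-likelihood test. Without DW3 it was called, at an adjusted p of 0.0106.

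**Figure D3:**
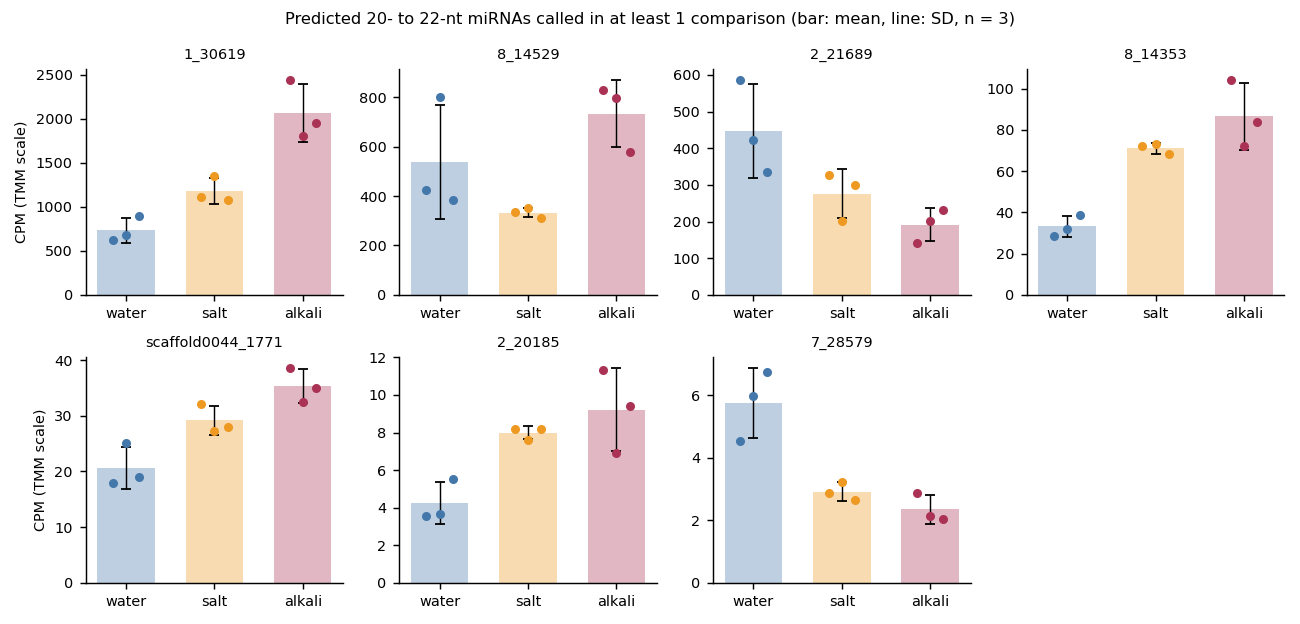
CPM of the predicted 20- to 22-nt miRNAs called in at least 1 of the 3 comparisons, 1 panel each, with bars for the mean, lines for the SD and points for the 3 libraries of each condition. unconservative_8_16039 is left out because its counts are those of unconservative_7_28579. unconservative_1_30619 goes from 735 CPM in distilled water over 1180 in salt to 2068 in alkali, while unconservative_8_14529 is lowest in salt, at 333 CPM.

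The direct comparison of alkali with salt used no distilled water library. In it unconservative_8_14529 and unconservative_1_30619 were higher in alkali, and no member was lower. The 2 of 48 are 4.17%, beside 4.02% of all entries tested in either direction, 3.4% higher and 0.618% lower. At an unadjusted p under 0.05 in edgeR's quasi-likelihood test, 3 were higher and 2 lower, and DESeq2 and limma-voom also called 2 higher and 0 lower. The median log2 fold change of the members was 0.10, against -0.06 over all entries tested. The groups did not overlap in 9 members, 7 higher and 2 lower, beside 25.0% of all entries tested, 14.8% higher and 10.2% lower.

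unconservative_8_14529 was the member for which the treatments differed most. The salt libraries had 335, 351 and 313 CPM and the alkali libraries 828, 795 and 578 CPM. The log2 fold change was 1.14 ± 0.23 (SE), 2.21-fold, with an adjusted p of 0.0018 in edgeR's quasi-likelihood test, and the call held in all 18 alternative analyses. The distilled water libraries, at 424, 803 and 385 CPM, lay above the salt libraries and overlapped the alkali libraries, and the log2 fold changes against distilled water had opposite signs, -0.69 in salt and 0.45 in alkali, with neither called. Without DW2 the alkali difference was called, at a log2 fold change of 0.86 and an adjusted p of 0.00844 in edgeR's quasi-likelihood test. unconservative_1_30619 had a log2 fold change of 0.81 ± 0.19 (SE) between alkali and salt, with an adjusted p of 0.0099 in the same edgeR test. That call was lost without SS1, SS3 or AS1, at adjusted p-values of 0.0657 to 0.0931. It was also lost with library sizes of clean reads, at an adjusted p of 0.146 in the same edgeR test. The lowest log2 fold change was -0.64 ± 0.37 (SE) in unconservative_2_22647, of 21 nt, with an adjusted p of 0.376 in edgeR's quasi-likelihood test at 15 to 37 counts per library.

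Over the 3 comparisons, 8 of the 48 tested members were called at least once and 40 were not. In those 40 the log2 fold changes lay between -0.89 and 0.92 in salt, between -0.76 and 1.23 in alkali, and between -0.64 and 0.68 in alkali against salt. Their SE ran from 0.16 to 0.78 over the comparisons, the highest being that of unconservative_4_45654. A missed threshold at such errors does not show that a member was equal between conditions.

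Beside the other classes of the table, the members of 20 to 22 nt followed the known miRNAs of these lengths rather than the predicted 24-nt miRNAs in the sign of their medians. In alkali, 1 of 132 tested predicted 24-nt miRNAs rose and 26 fell, with a median log2 fold change of -0.45, whereas 48 of 351 tested known miRNAs of 20 to 22 nt rose and 7 fell, with a median of 0.15. In salt, 1 predicted 24-nt miRNA rose and 0 fell, with a median of -0.27, while 19 known miRNAs of 20 to 22 nt rose and 25 fell, with a median of 0.03 that is close to 0. These are counts of entries, not of separate miRNAs. The 547 detected known entries of 20 to 22 nt held 362 distinct count profiles. Among those that fell in salt, mtr-miR2111a-5p and mtr-miR2111b had the same log2 fold change, -1.05. The medians are descriptions of the lists, and the difference between the lists was not tested gene by gene.

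The sum over all members gives 1 value per library, which uses no TMM factor but depends on what it is divided by. The members took 3.51 ± 0.23% of all miRNA counts in DW, 3.27 ± 0.33% in SS and 3.00 ± 0.40% in AS (SD, n = 3 each), and an exact permutation test over all assignments of the libraries to conditions gave p = 0.279. The difference of alkali from distilled water was -0.51 percentage points of all miRNA counts, -0.33 without AS1, -0.21 without DW1 and AS1 and -1.16 with mtr-miR5213-5p left out of the total, and it turned to 0.0465 as a percentage of clean reads. For every predicted 24-nt count there were 2.52 ± 0.57 member counts in DW, 3.13 ± 0.10 in SS and 3.60 ± 0.31 in AS (SD, n = 3 each). For the log2 of this ratio the exact permutation test gave p = 0.0357, which was 0.4 after adjustment over the 12 tests of the family, so it did not pass 0.05. All alkali libraries, at 3.41 to 3.95, lay above all distilled water libraries, at 2.12 to 3.18. The smallest p that 3 against 3 libraries allow is 0.1, and alkali against distilled water gave this value. Such pair tests were part of the family, so the adjusted value shows neither a difference nor its absence. Against the known miRNAs of 20 to 22 nt, the members stood at 3.74 ± 0.27, 3.46 ± 0.37 and 3.15 ± 0.44% of their counts (SD, n = 3 each), with p = 0.229 in the exact permutation test. A single known miRNA, mtr-miR5213-5p, held 29.0 to 51.8% of all counts of a library and so moves any share of the total.

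Within the members, the summed counts of 22 nt were a smaller part in the treated seedlings, a sum that rests on a few abundant members. For every 100 counts of the 20- and 21-nt members there were 40.5, 33.9 and 33.7 counts of 22-nt members in DW, 29.3, 25.1 and 28.2 in SS and 19.6, 25.8 and 26.3 in AS. All distilled water libraries were above all salt and alkali libraries, and salt and alkali overlapped. The means were 36.0 ± 3.88, 27.5 ± 2.18 and 23.9 ± 3.72 (SD, n = 3 each). This ratio was chosen after the values were seen, so it is given as a description with no test. The mean log2 ratio was lower in alkali than in distilled water by a difference of -0.60, which was -0.38 without DW1 and AS1, the libraries with the extreme scaling factors and the extreme ratios, and -0.49 without the called members. unconservative_7_24079, unconservative_4_42676 and unconservative_4_46013 held 90.9 to 94.2% of the 22-nt counts, so the ratio is mostly that of these miRNAs. They did not share a direction, since unconservative_4_46013 had log2 fold changes of 0.25 in salt and 0.35 in alkali, neither called. The 7 tested 22-nt members had a median log2 fold change of 0.01 in salt and 0.10 in alkali, with 4 of 7 positive in each. As a share of all miRNA counts, the 22-nt members had 0.93 ± 0.13% in DW, 0.71 ± 0.11% in SS and 0.58 ± 0.14% in AS, while the 20-nt members had 0.45, 0.42 and 0.44% and the 21-nt members 2.13, 2.15 and 1.98% (means of 3 libraries each).

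**Figure D4:**
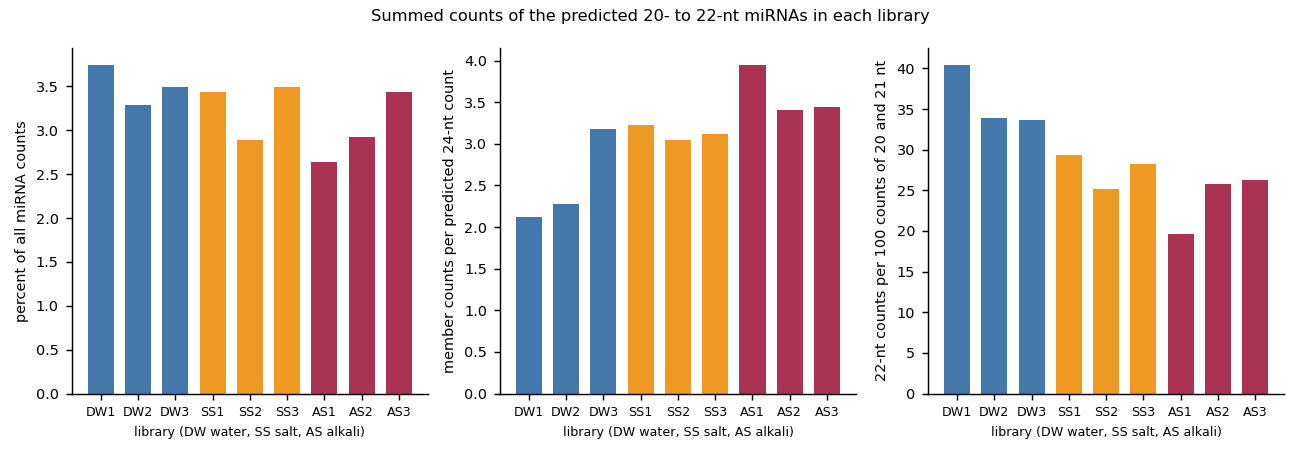
Summed counts of the predicted 20- to 22-nt miRNAs in each of the 9 libraries: as a percent of all miRNA counts, per predicted 24-nt count, and the 22-nt members per 100 counts of 20- and 21-nt members. Bars start at 0 and are colored by condition. The last panel shows 33.7 or more in the distilled water libraries and 29.3 or less in the others.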

How the data were processed

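Small RNA of entire R108 seedlings was sequenced, with 3 libraries each for distilled water, salt and alkali, grouped by the treatment label. The authors selected reads by length, discarded those of rRNA, tRNA and similar RNA by Bowtie, mapped the rest to the genome and predicted further miRNAs with miRDeep-P and RNA folding. They deposited raw read counts for 905 entries and the same values as TPM, which equal the count divided by the library's miRNA total (relative difference at most 3.08e-09), so only the counts were tested. The assignment of reads that fit several entries is not given in the sources used here. Tools named per the labels are Bowtie and DESeq 1.10.1, and the authors' comparison was not used.

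In R 4.3.3, edgeR 4.0.16 kept entries by filterByExpr (minimum count 10), scaled by TMM and fitted all 9 libraries by condition with robust dispersions. Each pair of conditions was compared by the quasi-likelihood test, with Benjamini-Hochberg adjustment over the 647 entries tested. A call needed an adjusted p under 0.05 and a fold over 1.5. The SE is the size of the log2 fold change over the square root of F. Sums per library were compared by two-sided exact permutation tests, adjusted over their family. Members named are those called, the 10 most abundant, those with the largest and smallest change, those with identical counts and unconservative_2_20185; other names were chosen after their values were seen. The members and lists were chosen with earlier results of these data known. Alternatives were DESeq2 1.42.0, voom of limma 3.58.1, DESeq2's size factors, library sizes of clean reads, no filter, at least 100 counts in 3 libraries, only the conditions compared, identical profiles once, a replicate block, each library left out, and DW1 with AS1 left out. The ratio of 22-nt to shorter members and its alternatives were added after seeing the data and are given with no test. The procedure was tested on simulated data. No sequence other than that of unconservative_2_20185 was matched to a count table name.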

Additional observations from a re-analysis of the deposited data

How the results depend on the processing

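The members called in salt numbered 2 with TMM, DESeq2, limma-voom and the filter of 100 counts, but 1 with library sizes of clean reads, 1 with the replicate block, 6 with no filter on low counts, 7 when only the conditions compared were fitted and 10 at an unadjusted p under 0.05 with the fold threshold. Leaving out a library gave 1 to 10, with 10 without DW3, 8 higher and 2 lower, and 4 without AS1 or AS3. In alkali the 7 calls became 4 with the filter of 100 counts and 5 to 14 on leaving out a library, with 14 without DW3, 10 higher and 4 lower. The filter of 100 counts left 28 members to test. It removed unconservative_2_20185, unconservative_7_28579 and unconservative_8_16039, and the other members called in alkali kept their calls. In alkali against salt the 2 calls became 1 with library sizes of clean reads and 1 to 3 on leaving out a library. No pairing of the libraries by replicate number is stated in the sources used here, and 3 libraries per condition cannot show whether there was one. Same-numbered libraries had correlations of their deviations from -0.585 to 0.403, and not every library correlated best with its own number. The replicate block left 1 call in salt, 7 in alkali and 2 in alkali against salt.

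The share of counts of the members in alkali minus distilled water, -0.51 percentage points, turned to 0.0465 as a percentage of clean reads. The log2 ratio of the members to predicted 24-nt counts differed by 0.53 in alkali minus distilled water. This difference was 0.35 without DW1 and AS1 and 0.42 to 0.71 on leaving out a library. The exact permutation test here compared all 3 conditions, not this pair alone. Its unadjusted exact permutation p was 0.133 without DW1 and AS1 and 0.00357 to 0.107 on leaving out a library. That p was over 0.05 whenever a salt or alkali library was left out. For the log2 ratio of the 22-nt members to shorter ones, the alkali minus distilled water difference stayed between -0.68 and -0.46 on leaving out a library. It was -0.38 without DW1 and AS1. Detected members fell from 55 to 26 at 100 counts in every library.

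Among the 17 members that the rule named, which leaves out those named after their values were seen, the called values were kept in 174 cases and lost in 21, and 21 uncalled values became called. A change of sign occurred only in values that were not called. For unconservative_2_22647 in alkali, the log2 fold change was -0.0047 with clean reads and -0.43 without DW1 and AS1, and -0.19 to 0.46 on leaving out a library. For unconservative_4_43694 in salt, it was -0.030 with the 100-count filter and -0.10 without DW1 and AS1, and -0.077 to 0.13 on leaving out a library. For unconservative_4_44216 in alkali against salt, it was -0.057 with clean reads, -0.00093 with the 100-count filter and -0.014 without DW1 and AS1, and -0.014 to 0.059 on leaving out a library. For unconservative_7_24079, it was -0.12 to 0.0049 in salt, -0.27 to 0.015 in alkali and -0.19 to 0.10 in alkali against salt on leaving out a library, and 0.028 in alkali and 0.10 in alkali against salt without DW1 and AS1. For unconservative_8_13769 in alkali, it was -0.18 without DW1 and AS1, and -0.041 to 0.33 on leaving out a library. The cause was not tested.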
